A study of Mus musculus with 12 samples.

Results

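The regulators of G protein signalling (RGS) examined here were Rgs1, Rgs2, Rgs3, Rgs10, Rgs14, Rgs16 and Rgs19. They were chosen by name, with earlier results of these data known. All probe sets whose only gene symbol was one of these 7 were taken. They came to 16 of the 45101 probe sets on the array: 4 each for Rgs2 and Rgs3, 3 for Rgs16, 2 for Rgs19 and 1 each for Rgs1, Rgs10 and Rgs14. All 16 passed the filter on low signal, and all 7 genes were among the 13156 genes tested.

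G protein coupled receptors, among them the receptors for chemokines and for sphingosine 1-phosphate that steer lymphocytes, act by loading GTP onto the alpha subunit of a G protein. RGS proteins bind the loaded alpha subunit and speed the hydrolysis of that GTP, which ends the signal of both the alpha and the beta-gamma subunits. In lymphocytes they are known for setting how strongly and for how long cells respond to chemokines.

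CD8 T cells were purified from mouse spleens with an enrichment kit and hybridised to Affymetrix arrays, 12 in all, with 3 for each of 4 groups. Control mice had the genotype Cd4-Cre/Scap+/+ (WT) and deficient mice Cd4-Cre/Scapfl/fl (KO). WT and KO mice were littermates, all samples came from males, and every group carried the Cre recombinase, which is driven by the Cd4 promoter and so acts throughout the T cell lineage, CD8 T cells included. Cells were quiescent (T0) or had been activated for 6 h (T6) by antibody to CD3 fixed to the plate and antibody to CD28 in solution. Scap encodes the escort protein of the SREBP transcription factors. The labels call the arrays of a group biological replicates and do not state ages. The tests set differences between group means against the spread of arrays within groups, estimated over all 4 groups. The design names 3 mice of each genotype, so T0 and T6 cells may have come from the same mice. Which arrays hold cells of the same mouse is not given in the sources used here, and the activation tests treat the 12 arrays as independent. Because the samples are bulk preparations, fewer cells of a type and less RNA per cell cannot be told apart.

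The comparisons ask which RGS genes change on activation and whether Scap deficiency alters their level before or after it. Array medians lay between 61.3 and 76.2 signal units, and arrays of a group correlated at 0.969 to 0.978 over all probe sets. In the T cell marker list 8 of 9 genes were tested, with a summed signal of 47600 to 106000 per array. The summed signal of the 2 tested of 3 CD4 T cell markers, Zbtb7b and Foxp3, was 45 to 222. Cd4 itself was not among the tested genes, so this sum does not include it. Of 10 T cell activation genes 8 rose in each genotype, against 11.3% of all tested genes in WT and 10.4% in KO. Among the 8 was Il2ra, a chain of the interleukin 2 receptor, which rose by 4.35 in WT and 3.90 in KO on the log2 scale. The deleted gene did not pass the test: the KO minus WT difference of Scap was -0.25 at T0 (adjusted p = 0.593) and -0.47 at T6 (adjusted p = 0.273), and which part of the gene its probes report was not analysed here. KO T6 replicate 2 had the highest summed erythroid marker signal of all arrays, 13100 against 1020 to 10900 in the other 11, over the 2 tested of 5 listed genes. WT T6 replicate 1 held 5140 units of summed B cell marker signal against 2380 and 2010 in replicates 2 and 3.

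Promoter sequence is shown for the gene that rose most and for a pair that fell, so that the regions can be set beside the activation results. Each is the 250 bases before the transcription start in RefSeq (GRCm38.p6), read 5′ to 3′ on the strand of the gene. Rgs16 lies at chr1:153740103-153740352 on the plus strand, Rgs2 at chr1:144004150-144004399 on the minus strand and Rgs10 at chr7:128418173-128418422 on the minus strand. Capitals mark exact matches, on either strand, to the NFAT core GGAAA, the AP-1 site TGANTCA, the CRE core TGACG, the EGR site GCGNGGGCG, the GC box CCGCCC, the CCAAT box CCAAT or the letters ATAAAA.
Rgs16: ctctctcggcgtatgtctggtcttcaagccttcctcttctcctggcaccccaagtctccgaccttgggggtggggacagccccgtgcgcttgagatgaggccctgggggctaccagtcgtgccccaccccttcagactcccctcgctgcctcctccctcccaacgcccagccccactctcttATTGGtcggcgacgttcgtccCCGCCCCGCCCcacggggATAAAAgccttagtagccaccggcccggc
Rgs2: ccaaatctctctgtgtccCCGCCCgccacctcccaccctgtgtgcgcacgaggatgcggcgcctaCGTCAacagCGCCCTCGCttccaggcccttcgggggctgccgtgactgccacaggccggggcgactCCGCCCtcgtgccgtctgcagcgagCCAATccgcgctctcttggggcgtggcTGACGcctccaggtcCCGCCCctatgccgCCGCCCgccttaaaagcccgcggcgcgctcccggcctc
Rgs10: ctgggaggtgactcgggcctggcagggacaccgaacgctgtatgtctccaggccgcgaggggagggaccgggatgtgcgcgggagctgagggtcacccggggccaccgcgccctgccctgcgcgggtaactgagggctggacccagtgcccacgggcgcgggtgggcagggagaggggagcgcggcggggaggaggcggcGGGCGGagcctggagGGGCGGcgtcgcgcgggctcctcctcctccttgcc
The table lists a promoter for 5 of the 7 genes, and Rgs1 and Rgs14 are without an entry.

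The Rgs16 window held 1 CCAAT box, read as ATTGG, 2 GC boxes that share a base, and 1 ATAAAA close to the start. The Rgs2 window held 2 CRE cores, 1 EGR site, 4 GC boxes and 1 CCAAT box, and the Rgs10 window held 2 GC boxes. Of all 32817 promoter windows of this length, 33.8% held a CCAAT box, 32.7% a GC box, 17.7% a CRE core, 17% ATAAAA and 4.70% an EGR site. NFAT core letters were in 55.6% of all windows and AP-1 letters in 6.75%, and neither was in these 3. GC content was 66.4% for Rgs16, 72.4% for Rgs2 and 76.4% for Rgs10, against a median of 52.4% over all windows. These matches describe letters and show no binding.

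Activation separated the RGS genes into one that rose steeply, 3 that fell and 3 that did not pass the test. In WT cells Rgs16 rose 21.2-fold, and Rgs2, Rgs14 and Rgs10 fell 2.59-fold, 2.24-fold and 1.83-fold. KO cells gave calls for the same 4 genes in the same directions, at 18.2-fold for Rgs16 and 2.11-fold, 2.14-fold and 1.83-fold for the other three. Folds and log2 changes are on the log2(signal + 16) scale, and calls are genes with a limma p under 0.05 after Benjamini-Hochberg adjustment. Of 7 members 4 were called in WT, where 25.1% of all tested genes were called (11.3% higher and 13.8% lower), and 4 in KO, where 20.9% were (10.4% higher and 10.4% lower). Centring each array on its median moved the median of all genes by 0.12 in WT and the share of rises among its calls from 45.2% to 62.6%, and the 4 members were called in the same directions. Without KO T6 replicate 2, 3 of 7 members were called in KO, and without WT T6 replicate 1, 4 of 7 were in WT. An unadjusted p under 0.05 was reached by 5 members in each genotype, against 36.5% of all tested genes in WT and 32.8% in KO. T0 and T6 arrays did not overlap for 5 members in each genotype, against 42.8% of all tested genes in WT and 36.5% in KO. The members were chosen with earlier results of these data known, so these shares give context and do not test the family. The median change of the 7 members was -0.30 in WT and -0.27 in KO, beside -0.06 and 0.00 over all tested genes.

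**Figure D1:**
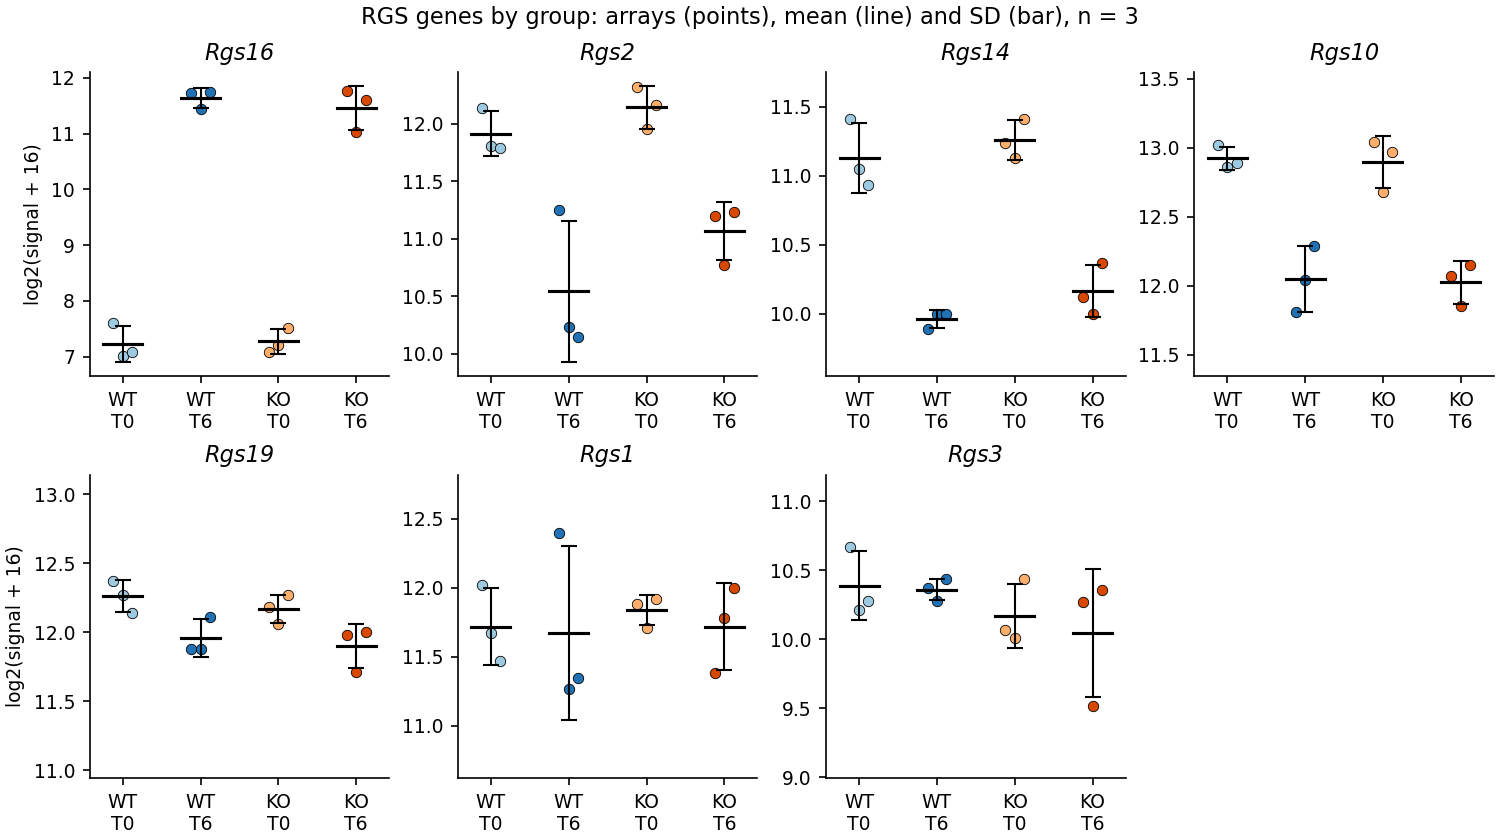
Level of each RGS gene on its tested probe set, as log2(signal + 16) on the vertical axis, in the 4 groups on the horizontal axis; points are arrays, the line is the mean and the bar the SD of 3 arrays, and each panel has its own vertical range. Rgs16 sits between 7.01 and 7.60 in all T0 arrays and between 11.02 and 11.76 in all T6 arrays, while Rgs2, Rgs14 and Rgs10 are lower at T6 in both genotypes.

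Rgs16 encodes a small RGS protein that acts on Gi and Gq alpha subunits and is known as an inducible member in lymphocytes. In WT its signal was 179, 112 and 119 at T0 and 3360, 2750 and 3430 at T6. In KO it was 121, 132 and 168 at T0 and 3450, 2060 and 3100 at T6. Every T6 array was far above every T0 array, and within each time the genotypes overlapped. The rise was 4.41 (SE 0.22, adjusted p = 1.5e-06) in WT and 4.18 (SE 0.22, adjusted p = 2.1e-06) in KO on the log2 scale. Among the 13156 genes it was the rise of rank 10 in WT and of rank 12 in KO. The other probe sets of Rgs16 rose by 3.52 and 3.07 in WT and by 3.20 and 2.82 in KO, each called when all 24539 probe sets were tested one by one. On the dimmest, T0 signals were as low as 12.1, near the added 16, which understates its change.

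Rgs2 encodes a small RGS protein with a preference for Gq. Its signal in WT was 4500, 3570 and 3540 at T0 and 2420, 1190 and 1110 at T6. KO arrays gave 5090, 3940 and 4560 at T0 and 2330, 1740 and 2380 at T6. All T6 arrays were below all T0 arrays, and WT T6 replicate 1 stood above the other WT T6 arrays, at the level of the KO T6 arrays. Rgs2 fell, with a change of -1.37 (SE 0.27, adjusted p = 0.0048) in WT and -1.08 (SE 0.27, adjusted p = 0.018) in KO. The KO call was lost without KO T0 replicate 1 (-0.99, adjusted p = 0.0653), without KO T6 replicate 2 (-0.93, adjusted p = 0.0568) and without KO T0 replicate 3 (-1.07, adjusted p = 0.0538); without any 1 array the range in WT was -1.73 to -1.17, with the call kept, and the lowest was without WT T6 replicate 1. Of the 3 further Rgs2 probe sets, a pair fell in both genotypes, with changes of -1.62 and -1.23 in WT and of -1.45 and -1.06 in KO. The fourth, with signals from 3.00 to 99.1, stood at -1.02 in WT and -1.39 in KO and did not pass.

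Rgs14 encodes a larger protein that adds Ras-binding domains and a GoLoco motif, which binds inactive Gi alpha subunits, to its RGS domain. In WT its signal was 2710, 2100 and 1930 at T0 and 930, 1010 and 1010 at T6. KO arrays read 2400, 2220 and 2710 at T0 and 1100, 1010 and 1310 at T6. The T6 arrays lay below every T0 array in both genotypes. Rgs14 fell, by a log2 change of -1.17 (SE 0.15, adjusted p = 0.00037) in WT and -1.09 (SE 0.15, adjusted p = 0.00063) in KO.

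Rgs10 encodes one of the shortest RGS proteins, which is selective for Gi family alpha subunits. Signals in WT were 8290, 7430 and 7550 at T0 and 3580, 4200 and 5000 at T6. In KO they were 8400, 6570 and 8010 at T0 and 4280, 3670 and 4540 at T6. The states were again fully apart. The change was a fall of -0.87 in both genotypes (SE 0.15, adjusted p = 0.0019 in WT and 0.0023 in KO).

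Rgs19, also known as GAIP, belongs to the subfamily with a cysteine string and acts on Gi and Gz alpha subunits. Its signal was 5280, 4920 and 4500 at WT T0 and 3760, 3740 and 4420 at WT T6. KO arrays gave 4630, 4260 and 4910 at T0 and 4040, 3340 and 4090 at T6. The T6 arrays were all below the T0 arrays of their genotype, but by a small step. The difference was -0.30 (SE 0.12, adjusted p = 0.0875) in WT and -0.27 (SE 0.12, adjusted p = 0.140) in KO, short of the threshold in both. With quantile normalization the WT value was -0.36 and passed (adjusted p = 0.0389). Its second probe set, also uncalled, differed by -0.32 in WT and by -0.28 in KO.

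Rgs1 encodes a small RGS protein known for restraining chemokine responses in B and T cells. At WT T0 its signal was 4140, 3240 and 2820, and at WT T6 it was 5370, 2450 and 2600. KO arrays gave 3750, 3340 and 3850 at T0 and 2640, 3490 and 4090 at T6. The groups overlapped in both genotypes, and the highest array of all was WT T6 replicate 1, the WT T6 array with the most B cell marker signal. At WT T0, replicate 1 also led its group in Rgs1 and in B cell markers (10700). In KO, replicate 1 had the most B cell marker signal at T0 (22400) and at T6 (13500). Its Rgs1 signal there was 3750, between the other T0 arrays, and 2640, the lowest at T6. The part of B cell markers in the level of Rgs1 was not tested. The T6 minus T0 difference was -0.05 (95% confidence interval -0.69 to 0.59, adjusted p = 0.928) in WT, or -0.41 without WT T6 replicate 1 (adjusted p = 0.206), and -0.12 (-0.76 to 0.52, adjusted p = 0.820) in KO.

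Rgs3 encodes RGS proteins of several lengths that act on Gi and Gq alpha subunits, and its 4 probe sets disagreed in the size of the change. The brightest of them, which was the one tested, read 1620, 1170 and 1230 at WT T0, 1300, 1230 and 1370 at WT T6, 1060, 1010 and 1370 at KO T0 and 1220, 717 and 1300 at KO T6. Its groups overlapped, with differences of -0.03 (95% confidence interval -0.52 to 0.47, adjusted p = 0.949) in WT and -0.12 (-0.62 to 0.37, adjusted p = 0.753) in KO. The second brightest read 1010, 1080 and 875 at WT T0 and 409, 445 and 405 at WT T6. There KO gave 862, 763 and 919 at T0 and 514, 525 and 300 at T6, so that on this probe set all T6 arrays were below all T0 arrays. It fell in the limma fit over all probe sets, at -1.20 (SE 0.19, adjusted p = 0.0017) in WT and -0.94 (SE 0.19, adjusted p = 0.0071) in KO.

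The third Rgs3 probe set in order of brightness read 276, 211 and 216 at WT T0, 169, 222 and 169 at WT T6, 199, 205 and 190 at KO T0 and 109, 126 and 119 at KO T6. It fell by 0.67 in KO (adjusted p = 0.0064) and stood at -0.31 in WT (adjusted p = 0.137), where the states overlapped. The fourth, with signals of 40.6 to 131, stood at -0.64 in WT and -0.62 in KO and was not called. With the mean of its probe sets in place of the brightest, Rgs3 was lower at T6 by a called -0.54 in WT (adjusted p = 0.00587) and -0.59 in KO (adjusted p = 0.00445). RefSeq lists a pair of separate starts for Rgs3 on chromosome 4, and which transcripts each probe set reports was not analysed here.

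Over all 16 RGS probe sets tested singly, 3 rose and 6 fell in WT, where 22% of all probe sets were called, and 3 rose and 7 fell in KO, where 19.6% were. The rises were all of Rgs16. The falls were of Rgs2, Rgs10, Rgs14 and Rgs3.

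**Figure D2:**
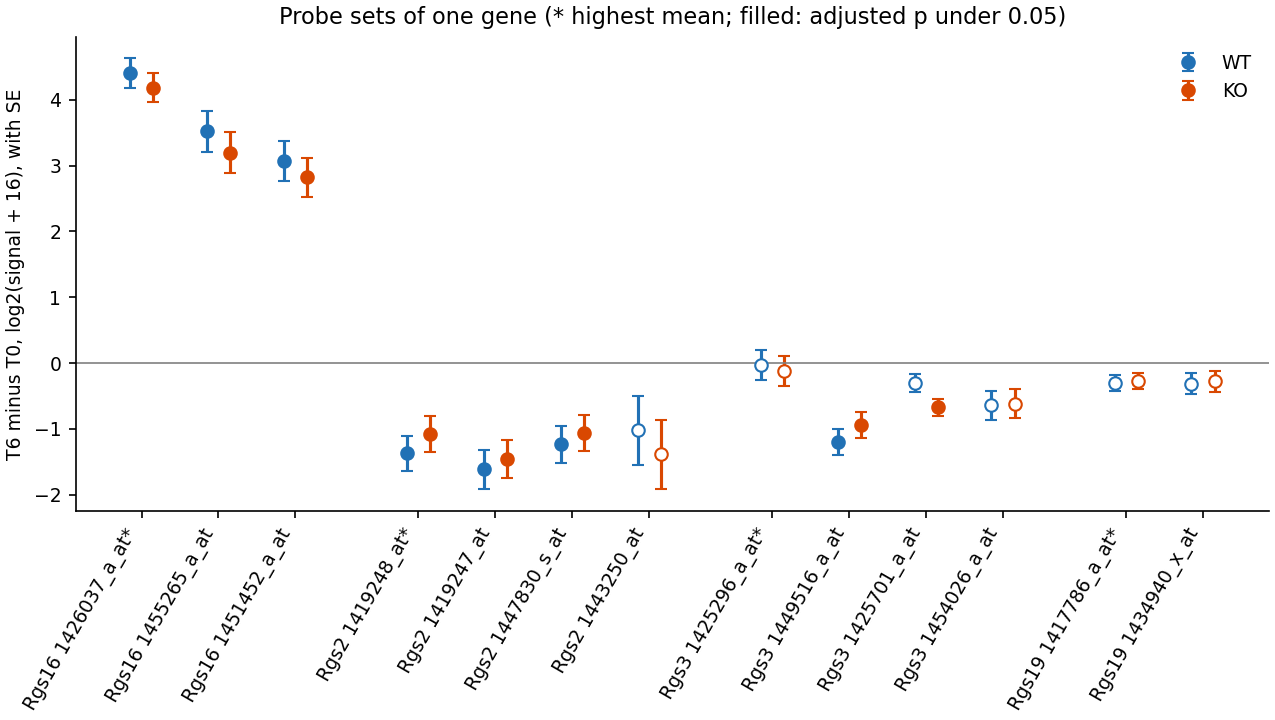
Change on activation (T6 minus T0, log2(signal + 16) scale, with its SE) on the vertical axis for every probe set of the 4 RGS genes with more than 1, on the horizontal axis, in WT and KO; an asterisk marks the probe set with the highest mean and filled points have an adjusted p under 0.05 over all probe sets. The probe sets of each gene lie on one side of 0, and those of Rgs3 differ in size, from -0.03 to -1.20 in WT.

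Scap deficiency changed no RGS gene past the threshold. At T0, 0 of 7 members were called by limma in KO against WT, where 0.038% of all tested genes were called, and 0 had an unadjusted p under 0.05, against 9.78% of all tested genes. At T6 0 of 7 were called, with 0.0988% of all genes called (0.0304% higher and 0.0684% lower), and 0 had an unadjusted p under 0.05, against 11.8%. On the probe set that stood for each gene, WT and KO arrays overlapped for every member at both times, where 16.6% of all genes did not overlap at T0 and 18.8% did not at T6. Among the 16 RGS probe sets tested singly by limma 0 were called at T0 and 0 at T6, where 0.0163% and 0.477% of all probe sets were, and 0 and 1 had an unadjusted p under 0.05, against 9.54% and 13.1%. WT and KO arrays stood fully apart on 1 of the 16 at T0 and on 2 at T6, against 16.6% and 19.6% of all probe sets. On the third Rgs3 probe set every KO array was below every WT array at both times, with the signals given above and differences of -0.22 (SE 0.14, adjusted p = 0.634) at T0 and -0.59 (SE 0.14, unadjusted p = 0.0014, adjusted p = 0.105) at T6. The dimmest Rgs16 probe set read 538, 421 and 463 in WT and 327, 297 and 290 in KO at T6, a difference of -0.61 (SE 0.30, adjusted p = 0.431).

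On the probe sets that stood for the genes, the KO minus WT differences ran from -0.22 (Rgs3) to 0.23 (Rgs2) at T0 and from -0.31 (Rgs3) to 0.53 (Rgs2) at T6. Their 95% confidence intervals together spanned -0.71 to 0.83 at T0 and -0.81 to 1.13 at T6. Among these, Rgs2 at T6 had the smallest p (unadjusted 0.0804, adjusted 0.483, interval -0.08 to 1.13), and the WT and KO arrays overlapped. Without WT T6 replicate 1 this difference was 0.88 (adjusted p = 0.112). For Rgs10 the difference was -0.02 at both times, with intervals of -0.35 to 0.30. Rgs16 differed by 0.05 (-0.45 to 0.54) at T0 and by -0.18 (-0.67 to 0.32) at T6.

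The change on activation was also compared between genotypes by an interaction term. Of 7 members 0 were called by limma and 0 had an unadjusted p under 0.05; over all tested genes 0% were called and 4.59% had an unadjusted p under 0.05. The fall of Rgs2 differed by 0.30 between KO and WT (interval -0.55 to 1.15) and the rise of Rgs16 by -0.22 (-0.92 to 0.48). Leaving out KO T6 replicate 2, the array with the most erythroid signal, gave a Rgs16 rise of 4.41 in KO. The rise was 4.04 without KO T6 replicate 1 and 4.11 without KO T6 replicate 3. In its group KO T6 replicate 2 was the lowest on the tested probe set of every member but Rgs1. It also had the lowest summed T cell marker signal of the group, 47600 against 60000 and 58400. The part of erythroid or other cells in these values was not tested.

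**Figure D3:**
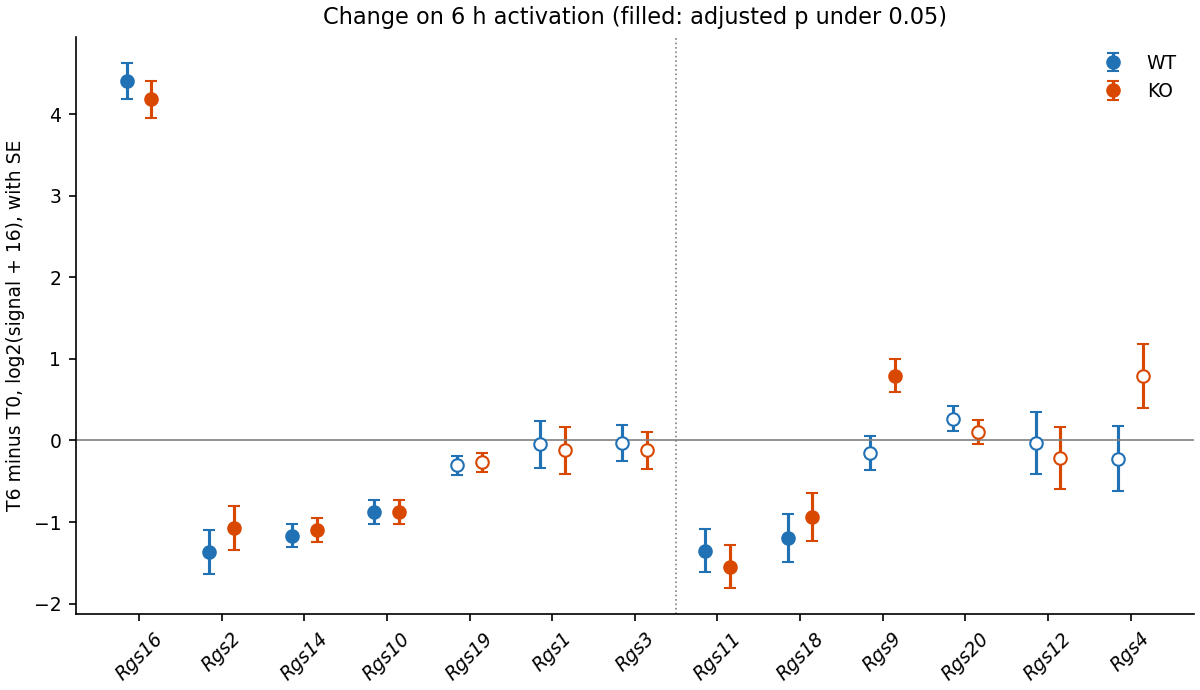
Change on activation (T6 minus T0, log2(signal + 16) scale, with its SE) on the vertical axis for the 7 RGS genes described and, right of the dotted line, the 6 other tested family members, in WT and KO; filled points have an adjusted p under 0.05. Rgs16 stands alone above 4, and the WT and KO points of the 7 genes lie within 0.30 of each other.

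Markers of other cell types moved with the same comparisons. Of all tested genes 13.8% were called lower on activation in WT and 10.4% in KO, and 32.8% had an unadjusted limma p under 0.05 in KO activation. Myeloid marker signal, summed over 10 of 11 listed genes, fell from 14900-20000 at WT T0 to 1200-2990 at WT T6 and from 21600-28100 to 3050-5280 in KO, with 8 of 10 genes called lower in each genotype. B cell signal, summed over 10 of 11 genes, was 5770-10700 at WT T0 and 2010-5140 at WT T6 and 11100-22400 and 6700-13500 in KO, with 3 of 10 genes called lower in WT and, by limma, 0 in KO (1 with an unadjusted p under 0.05). All 10 B cell and all 10 myeloid genes were higher in KO than in WT at both times, of which 1, a myeloid gene at T6, was called. An unadjusted limma p under 0.05 was reached by 3 of 10 B cell genes at T0 and 8 at T6. Among the 10 myeloid genes 3 reached it at T0 and 4 at T6. Over all tested genes the shares were 9.78% at T0 and 11.8% at T6, with 0.038% and 0.0988% called. T cell genes moved too: 4 of 8 fell on activation in each genotype, and all 8 were lower in KO at both times, with 0 called by limma (2 with an unadjusted p under 0.05 at T0 and 4 at T6). Dendritic cell markers, 4 genes, summed to 258-545 at WT T0 and 643-999 at KO T0, and to 107-200 and 264-451 at T6. The part of these cells in the falls of Rgs2, Rgs10 and Rgs14, and in the KO against WT values, was not tested. The same holds for the changes on activation of the other genes given here, among them Rgs18, Gngt2, Gpr34 and Plcb2.

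Other RGS genes were measured less fully. Of 14 listed family members 12 had a probe set and 6 passed the filter. Rgs11 and Rgs18 fell in both genotypes and Rgs9 rose in KO. In KO against WT 0 of 6 were called by limma at either time, where 0.038% of all tested genes were called at T0 and 0.0988% at T6. An unadjusted p under 0.05 was reached by 0 at T0 and 3 at T6, against 9.78% and 11.8% of all tested genes. Rgs11 encodes a member that pairs with the Gnb5 subunit, and its signal was 451, 462 and 387 at WT T0, 171, 117 and 202 at WT T6, 508, 349 and 429 at KO T0 and 163, 83.3 and 177 at KO T6. The T6 arrays were all lower, with changes of -1.35 in WT (adjusted p = 0.0047) and -1.55 in KO (adjusted p = 0.0026).

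Rgs18, known from platelets and megakaryocytes, read 96.2, 108 and 173 at WT T0, 58.3, 59.1 and 23.5 at WT T6, 236, 130 and 164 at KO T0 and 83.9, 71.9 and 91.0 at KO T6. The fall was -1.19 in WT (adjusted p = 0.0147) and -0.94 in KO (adjusted p = 0.0477). The KO call was lost in 15 of 23 alternatives, with adjusted p up to 0.157, and the WT call was lost without WT T0 replicate 3 (adjusted p = 0.0538). Platelet marker signal, summed over 6 genes, was 697-980 at WT T0, 648-1260 at WT T6, 783-1240 at KO T0 and 876-1340 at KO T6, which overlap. Of the 6 genes limma called 1 lower on activation in WT, where 13.8% of all tested genes were. In KO it called 0, where 10.4% were called lower, and 0 had an unadjusted p under 0.05, against 32.8%. The part of platelets or of other cells in the Rgs18 fall was not tested.

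Rgs9, a relative of Rgs11 best known from the retina and striatum, read 112, 142 and 166 at WT T0 and 155, 99.9 and 118 at WT T6, which overlap. KO arrays gave 121, 124 and 96.6 at T0 and 261, 215 and 161 at T6, all higher. It rose by 0.80 in KO (adjusted p = 0.0205) and stood at -0.15 in WT, but the test of that difference itself was not passed (0.95, unadjusted p = 0.00833, adjusted p = 0.9997). Its second probe set stood at 0.14 in KO and 0.47 in WT, uncalled. The KO call was lost with the mean of the probe sets (0.27), without KO T0 replicate 3 (adjusted p = 0.0757) and without KO T6 replicate 1 (adjusted p = 0.0785).

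Rgs2, Rgs1 and Rgs18 lie in 1 run on chromosome 1 of GRCm38.p6, with Rgs13 between the first pair and Rgs21 between the second. Within it Rgs2 and Rgs18 fell while Rgs1 did not pass the test, and Rgs13 and Rgs21 were not among the tested genes. Rgs16 lies next to Rgs8 elsewhere on that chromosome, and Rgs8 was not tested.

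The receptors, G proteins and partners on which RGS proteins act moved in a mixed way on activation. Each count here and for the lists that follow stands beside 11.3% higher and 13.8% lower among all tested genes in WT and 10.4% and 10.4% in KO. Alpha subunits, the direct substrates, had 1 rise and 3 falls among 10 tested genes in WT and 0 of 10 called in KO by limma. In KO 0 also had an unadjusted p under 0.05, against 32.8% of all tested genes. Gnai2, the main Gi alpha subunit of lymphocytes, fell by 0.70 in WT (adjusted p = 0.0155) and stood at -0.14 in KO; the difference between them had an adjusted p of 0.9997 (0.56, unadjusted p = 0.0457). The WT call was lost without WT T0 replicate 1 (adjusted p = 0.0563) or WT T6 replicate 3 (0.0506). Taking the mean of the probe sets, Gnai2 passed in KO too, at -0.54 (adjusted p = 0.0192).

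Beta and gamma subunits had 2 rises and 4 falls among 12 in WT, and 2 rises and 3 falls in KO. The gamma subunit Gngt2 fell, at -1.21 in WT and -1.36 in KO (adjusted p = 0.00056 and 0.00033).

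Of the kinases and arrestins that desensitise receptors, 3 of 6 fell in each genotype, and they were the same genes. Arrb2, the beta-arrestin that uncouples phosphorylated receptors, fell, at -1.73 in WT and -1.74 in KO. The receptor kinases Grk6 and Grk3 fell too, at -1.25 and -0.86 in WT and -1.08 and -0.84 in KO. Their adjusted p ran from 7.9e-05 to 0.010. The median of the 6 genes was -0.80 in WT and -0.74 in KO, beside -0.06 and 0.00 over all tested genes.

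Of 23 tested T cell receptors coupled to G proteins, 4 rose and 8 fell in WT and 3 rose and 6 fell in KO. Ccr9, a chemokine receptor for homing to the gut, fell, at -1.99 in WT and -1.85 in KO (adjusted p = 0.00057 and 0.0010). Gpr171 rose by 1.41 in WT and 1.18 in KO. Lpar6, a receptor for lysophosphatidic acid, fell, at -0.88 and -0.99. Gpr34, a receptor for lysophosphatidylserine, fell, at -1.67 and -2.15.

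Among 25 effectors and exchange factors 2 rose and 11 fell in WT, and 1 rose and 7 fell in KO. Prex1, a Rac exchange factor driven by beta-gamma subunits, fell, at -1.0 in WT and -1.20 in KO (adjusted p = 0.00039 and 0.00016). Plcb2, a phospholipase C activated by beta-gamma and Gq, fell, at -1.38 in WT and -1.43 in KO (adjusted p = 0.00051 and 0.00048). The cyclic AMP phosphodiesterases Pde4b and Pde4d went opposite ways, Pde4b at -1.34 in WT and -1.01 in KO and Pde4d at 0.84 and 0.99. Both calls were lost in both genotypes when probe sets were averaged, at -0.05 and -0.05 for Pde4b and 0.60 and 0.31 for Pde4d. In KO against WT limma called 0 genes of these 5 lists at either time. Alpha subunits had 1 of 10 with an unadjusted p under 0.05 at T0 and 1 at T6, beta and gamma subunits 1 of 12 and 3, kinases and arrestins 1 of 6 and 2, receptors 5 of 23 and 4, and effectors 1 of 25 and 4, against 9.78% of all tested genes at T0 and 11.8% at T6.

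**Figure D4:**
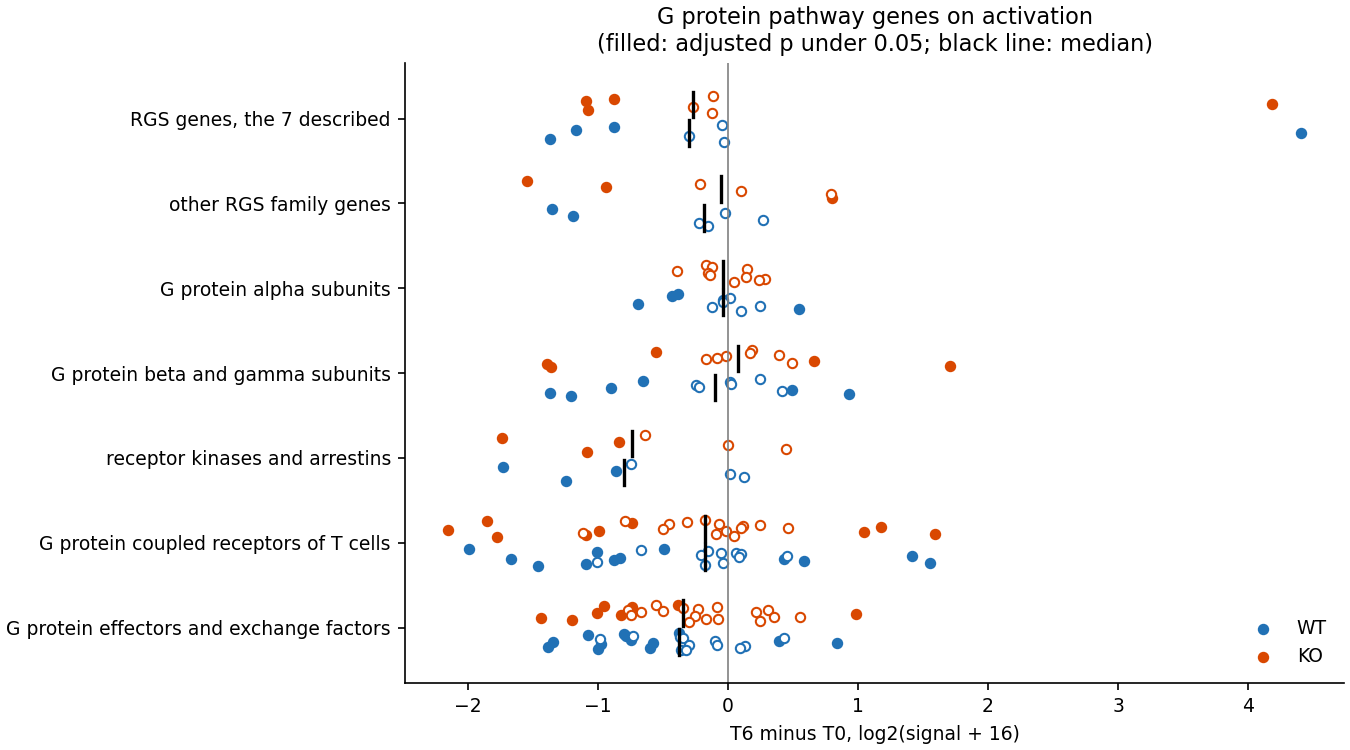
Change on activation (T6 minus T0, log2(signal + 16) scale) on the horizontal axis for each tested gene of the RGS family and of the lists of G protein pathway genes, with WT below and KO above in each row; filled points have an adjusted p under 0.05 and the short black line is the list's median. Rgs16 is the point above 4 in both genotypes, and the kinases and arrestins have medians of -0.80 and -0.74.

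Across the 12 arrays the levels of Rgs2, Rgs10, Rgs14 and Rgs19 correlated with each other at 0.66 to 0.95 and with Rgs16 at -0.94 to -0.73. Rgs1 correlated with the other members at -0.11 to 0.47 and Rgs3 at -0.04 to 0.62. Arrays of a state share its change, so these values describe mostly the step from T0 to T6. By the same measure the tested genes most like Rgs16 were Slamf1, Sema7a and Slc7a1, each at 0.996. Those most like Rgs10 were Hdac7 (0.993), Nkg7 (0.992) and Lsp1 (0.991), and for Rgs14 they were Unc13d (0.987), Map7d1 (0.979) and Gm2a (0.979). Rgs19 was most like Klk8 (0.983), Mfng (0.976) and Fxyd5 (0.975), and Rgs2 most like Igsf8 (0.968), Entpd1 (0.965) and Emid1 (0.963). Rgs3 and Rgs1 had weaker best matches, Panx1 at 0.936, Tgoln1 at 0.930 and Rps20 at 0.930 for Rgs3, and Lce1a1 at 0.848, Chmp7 at 0.842 and Dok4 at 0.840 for Rgs1.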

How the data were processed

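PolyA RNA of splenic CD8 T cells was measured on 12 single-channel arrays, 3 for each genotype and state. The deposited values are intensities: linear signals per probe set made by the authors with GCOS, per the submitters' processing notes, with no version. Background removal and probe summarisation are not given in the sources used here. All arrays shared a trimmed mean of 500.003 (percentiles 2 to 98), which shows a common scaling. Values were used as log2(signal + 16), which understates changes of dim probe sets. The number of arrays limits the precision.

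Control probe sets and those with several or no symbol were left out, which kept 34945. A gene was its probe set with the highest mean, kept when its signal passed percentile 40 on 3 or more arrays. This left 13156 genes, or 24539 probe sets where each was tested by itself. Tests used limma 3.58.1 in R 4.3.3 with 4 group coefficients over 12 arrays, two-sided, with Benjamini-Hochberg adjustment over all genes. Named genes were all members with all probe sets, Scap, and up to 4 genes of each list by smallest p in a contrast; the 3 genes most like each member were taken by Pearson correlation. The members and the gene lists were chosen with earlier results of these data known. On simulated data with 200 of 13156 genes changed, 56.2% of genes changed by 1 and 87.9% of those changed by 2 (log2) were recovered in WT activation, with 12 false calls, and 63.0% and 85.1% in KO against WT at T6, with 7. Of genes changed by 0.5, 21.4% were recovered in WT activation. In KO against WT the share at 0.5 was 22.9% at T0 and 15% at T6. In the real WT activation 25.1% of genes were called, a larger share than was simulated, and the simulated noise was independent between genes and arrays. Recovery in the real data may thus differ. Alternatives covered the added constant, normalization, centring, filter, probe set choice, array weights, a block for replicate number and leaving out each array. In the activation and interaction tests the block joined T0 and T6 arrays of one genotype and number. In the KO against WT tests it joined all arrays of one number, across genotypes. The labels do not say that arrays of one number belong together.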

Additional observations from a re-analysis of the deposited data

How the results depend on the processing

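Of the 8 called member results, 181 of 184 values under the alternatives kept their direction and their side of the threshold, and the other 3 are the losses of the Rgs2 call in KO given above. The count of called members was 4 to 5 in WT activation and 3 to 5 in KO activation, and 0 in the genotype comparisons and the interaction, under every alternative run. Not called as reported, Rgs3 passed in both genotypes with averaged probe sets and Rgs19 in WT with quantile normalization.

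With a replicate block the members called were 4 in each activation comparison and 0 otherwise, and Rgs16 stood at 4.41 (adjusted p = 0.000172) and 4.18 (adjusted p = 0.000238). It took the Gng2 falls and the Rgs18 fall in KO out of the calls. After group means were removed, same-numbered T0 and T6 arrays correlated at 0.18, 0.46 and 0.38 in KO and at 0.23, -0.06 and -0.11 in WT. For arrays with unlike numbers the values ran from -0.4 to 0.14 in KO and from -0.16 to 0.23 in WT. Such correlations cannot show whether arrays with one number hold cells of one mouse, and this was not tested.

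Signs that turned were all of small values that were not called. Median centring gave 0.067 for Rgs1 and 0.088 for Rgs3 in WT activation and -0.019 for Rgs1 at T6. Array weights gave 0.026 and 0.059 for Rgs3 in WT and KO activation, 0.036 and 0.027 for Rgs10 at T0 and T6, and 0.0049 for Rgs19 at T6. Averaged probe sets gave -0.053 for Rgs16 at T0. Leaving out 1 array gave for Rgs1 a range of -0.41 to 0.15 in WT activation, -0.26 to 0.053 in KO activation, -0.0087 to 0.27 at T0 and -0.15 to 0.41 at T6. For Rgs3 the ranges were -0.12 to 0.12 in WT and -0.28 to 0.14 in KO activation. Rgs10 ran from -0.095 to 0.082 at T0 and from -0.14 to 0.098 at T6, Rgs16 from -0.076 to 0.23 and from -0.32 to 0.045, and Rgs19 at T6 from -0.11 to 0.037. Gnai2 in KO activation ran from -0.29 to 0.0018. The causes were not tested.

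Over all genes the calls in KO against WT ranged from 1 to 10 at T0 (5 as reported) and from 0 to 117 at T6 (13 as reported), 117 with every probe set tested singly and 24 with the replicate block. Tested singly, 5409 and 4818 probe sets were called in WT and KO activation, where more features are tested. The interaction called 0 to 1. With 3 arrays a group and single probe sets for Rgs1, Rgs10 and Rgs14, small differences in those genes cannot be told from array noise.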
